A study of Arabidopsis thaliana with 4 samples.

Results

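The 5 genes described here, JAL23 (AT2G39330), AT2G43550, AT3G51450, AT3G28220 and AT2G39420, are 5 of 13286 genes with a named probe set on the array. They were chosen from the log2 values of these same 4 arrays, on which they had been seen to be higher after wounding and lower in opr3 than in wt. Each gene was measured by 1 probe set, a group of short oligonucleotides: 266989_at for JAL23, 260547_at for AT2G43550, 252114_at for AT3G51450, 256577_at for AT3G28220 and 266977_at for AT2G39420. The values that chose them are the values given below, so the levels and differences of the 5 genes are a description and support no test.

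Leaf RNA of Arabidopsis thaliana was hybridised to Affymetrix ATH1 arrays, 1 array for each of 4 groups: wounded opr3, control opr3, wounded wt and control wt. All plants were 6 weeks old and had been grown at 21 °C in short days of 10 h light and 14 h dark. In the wounded groups a part of the rosette leaves was crushed at the midvein with tweezers, and the uncrushed leaves gave the RNA 2 h later, so the measured response is systemic. The treatment text of the wounded opr3 array names WT plants, and the group was taken from its title. The allele and the accession of opr3, the accession of wt and the number of plants per array are not given in the sources used here. With 1 array per group there is no spread between plants, no p-value and no standard error, and every difference below compares 2 single arrays, or 4 for a difference between responses.

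OPR3 is the peroxisomal reductase that carries the precursor OPDA towards jasmonic acid, the hormone that drives much of the wound response of leaves. After conjugation to isoleucine, jasmonic acid is perceived by COI1, which leads to the breakdown of JAZ repressors and so frees transcription factors such as MYC2. Jasmonate also acts in unwounded leaves, where it sets the basal level of some defence transcripts, and OPDA has signalling activity of its own. JAL23 is a jacalin-related lectin, one of a family of carbohydrate-binding proteins, several of which associate with the beta-glucosidase PYK10 in Arabidopsis. The gene tables used here give the other 4 genes no name and no product, so they are called by their locus. AT2G43550 lies in a run of genes that begins with the trypsin inhibitor genes TI1 and TI2, whose products inhibit digestive proteases. AT3G51450 lies beside the strictosidine synthase-like genes SSL4 and YLS2 (SSL5), named after an enzyme of alkaloid synthesis in other plants.

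The arrays were alike as a whole, with Pearson's r between 0.9645 and 0.993 for every pair. The leaf genes RCA, LHCB4.1 and PRK, the 3 named of 8 mesophyll markers written, had log2 values of 12.21 to 13.57 on all 4 arrays. PYK10 was the 1 named of 3 root markers written. It lay at 3.74, 3.65, 3.92 and 3.62 in wounded opr3, control opr3, wounded wt and control wt. These values are below the filter level of 4.73 that was used to leave out weak probe sets. Markers of flower, seed, phloem, xylem and myrosin cells had no named probe set and were not analysed here. The wounded wt array, on which all 5 genes were highest, also had the lowest 5′ minus 3′ difference of the 8 spiked-in control transcripts, with a mean log2 difference of -0.96, against -0.58 in wounded opr3, -0.61 in control opr3 and -0.53 in control wt. For the plant's own actin, GAPDH and ubiquitin the mean was -0.47 in wounded wt, against -0.21 in wounded opr3, -0.34 in control opr3 and -0.20 in control wt. The part of this in the results below was not tested.

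JAL23 was near background in unwounded opr3 and strongly raised in wounded wt. Its log2 value was 6.07 in wounded opr3, 4.03 in control opr3, 9.65 in wounded wt and 5.76 in control wt. The control opr3 value lay under the filter level of 4.73, so folds that rest on it are approximate. Wounded wt stood far above the other 3 arrays, and wounded opr3 reached a level close to that of unwounded wt. Wounded over control, JAL23 was about 4.13-fold higher in opr3 and 14.8-fold higher in wt. In opr3 it was about 3.33-fold lower than in wt in control plants and 11.9-fold lower in wounded plants.

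AT2G43550 followed JAL23 in form but had the weakest difference between the lines before wounding. It was at 6.52 in wounded opr3, 5.19 in control opr3, 10.18 in wounded wt and 6.30 in control wt (log2). Again only wounded wt was high, and wounded opr3 and control wt lay within 0.22 of each other. The wounding response was 2.51-fold in opr3 and 14.8-fold in wt. opr3 was 2.15-fold lower than wt in control plants and 12.7-fold lower in wounded plants, the widest gap of the 5 genes after wounding.

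AT3G51450 had the largest wounding response of the 5 genes in both lines. Its log2 values were 7.76 in wounded opr3, 4.80 in control opr3, 10.68 in wounded wt and 6.57 in control wt. Control opr3 lay 0.07 above the filter level, so folds that rest on it are approximate. Of the 5 genes it alone was at least 2-fold higher in wounded opr3 than in unwounded wt, at 2.29-fold. Wounding was followed by about 7.79-fold higher levels in opr3 and 17.3-fold higher levels in wt. In opr3 the gene was about 3.40-fold lower than in wt in control plants and 7.54-fold lower in wounded plants.

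AT3G28220 differed from the others in that the gap between the lines was nearly the same before and after wounding. It was at 8.53 in wounded opr3, 6.84 in control opr3, 10.73 in wounded wt and 8.97 in control wt, well above the filter level on every array. Wounded opr3 remained below unwounded wt, by 1.36-fold. The response was 3.21-fold in opr3 and 3.37-fold in wt. opr3 was 4.37-fold lower than wt in control plants, the widest gap of the 5 genes before wounding, and 4.59-fold lower in wounded plants.

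AT2G39420 had the smallest wounding response of the 5 genes in opr3. Its log2 values were 6.47 in wounded opr3, 5.58 in control opr3, 9.45 in wounded wt and 7.18 in control wt. Wounded opr3 lay below unwounded wt here as well, by 1.64-fold. The response in opr3 was 1.85-fold, under the 2-fold limit used to call a difference, and that in wt was 4.82-fold. In opr3 the gene was 3.03-fold lower than in wt in control plants and 7.88-fold lower in wounded plants.

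**Figure D1:**
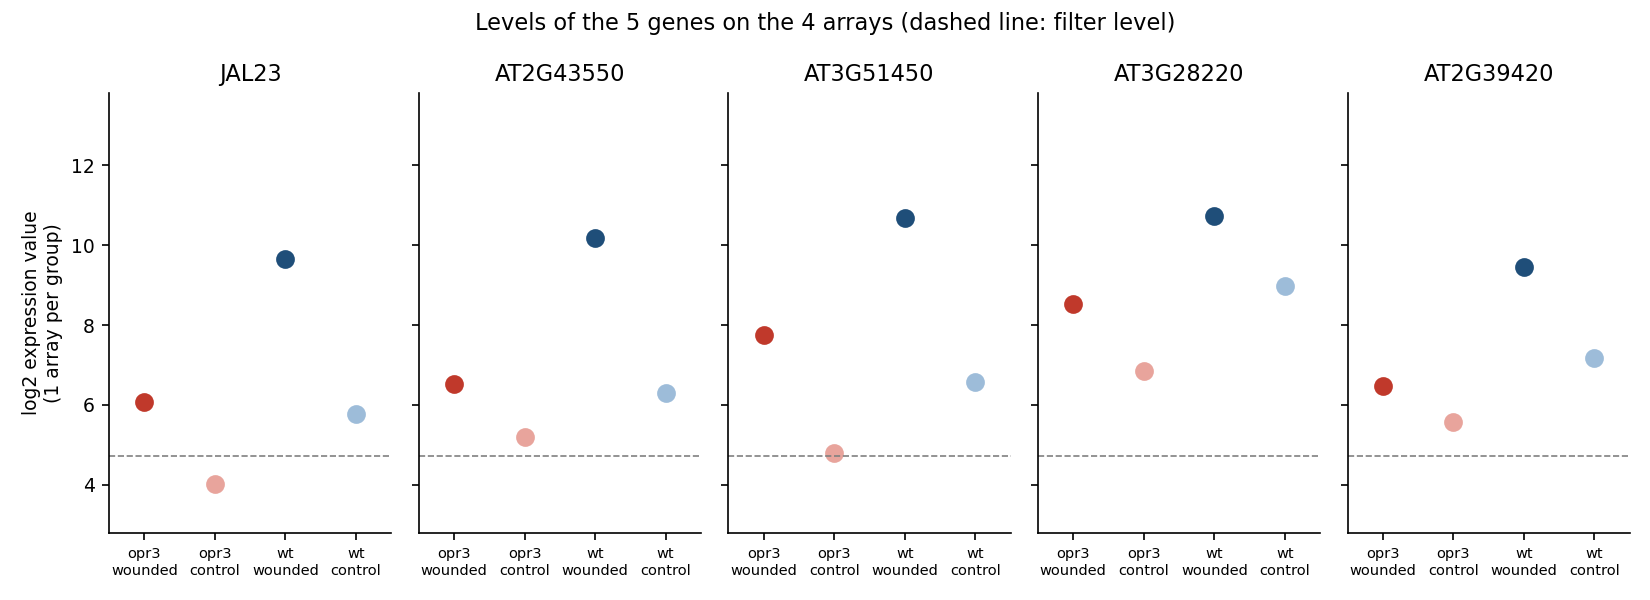
Log2 expression value (y axis) of each of the 5 genes on the 4 arrays (x axis: wounded opr3, control opr3, wounded wt, control wt), 1 point per array, with the filter level of 4.73 as a dashed line. Wounded wt is the highest and control opr3 the lowest array for each gene, and only JAL23 in control opr3, at 4.03, lies under the dashed line.

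Seen together, wounded wt was the highest and control opr3 the lowest array for 5 of 5 genes, and the genes differed in how the other two arrays were ordered. For JAL23, AT2G43550 and AT3G51450 wounded opr3 lay above control wt, an order that 9.69% of the 14612 probe sets past the filter also had. For AT3G28220 and AT2G39420 wounded opr3 lay below control wt, an order held by 3.57% of probe sets. The distance between wounded opr3 and control wt was under 2-fold for JAL23, AT2G43550, AT3G28220 and AT2G39420, and with single arrays the order of such close values has no replicate check. From control opr3 to wounded wt the genes spanned 3.87 (AT2G39420) to 5.88 (AT3G51450) log2 units. Whole leaves were sampled, so fewer cells that carry a transcript and less transcript per cell cannot be told apart.

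The wounding response was at least 2-fold for 4 of 5 genes in opr3, where 4.85% of probe sets were higher by that much, and for 5 of 5 in wt, where 3.94% were. These shares are given for scale only, since the genes were chosen for their response. The median log2 response of the 5 genes was 1.68 in opr3, against -0.03 over all probe sets, and 3.89 in wt, against -0.05. The central 95% of all probe sets ran from -0.89 to 1.40 in opr3. That span holds AT2G43550 (1.33) and AT2G39420 (0.89) but not AT3G28220 (1.68), JAL23 (about 2.04) or AT3G51450 (about 2.96). In wt that span ran from -0.92 to 1.34, and all 5 genes lay above it. Ranked from the largest rise, AT3G51450, AT2G43550 and JAL23 took places 11, 16 and 17 in wt and places 47, 412 and 143 in opr3.

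**Figure D2:**
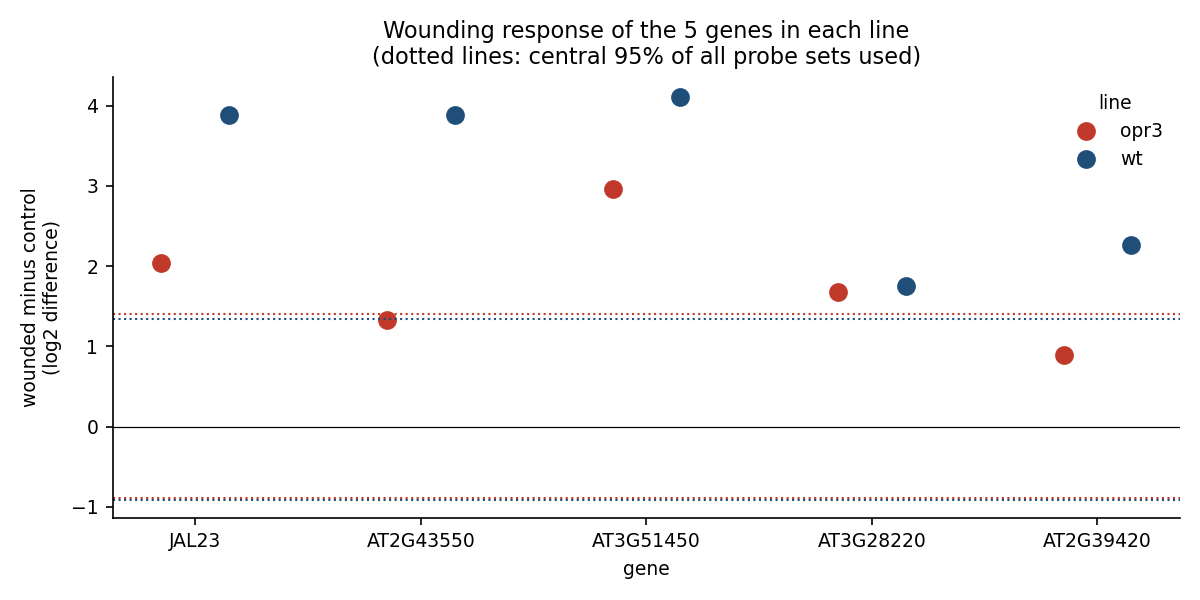
Wounded minus control log2 difference (y axis) for each of the 5 genes (x axis) in opr3 and in wt, 1 point per line, with dotted lines at the central 95% of all 14612 probe sets in the same colour. The responses of AT3G28220 nearly coincide, at 1.68 in opr3 and 1.75 in wt, and the other 4 genes have the lower point in opr3.

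The difference between the responses, opr3 minus wt, split the 5 genes. The opr3 response was the smaller by at least 2-fold for 4 of them, as for 1.32% of all probe sets, and this contrast too is made of the arrays that chose the genes. In opr3 the response of AT2G43550 was 5.89-fold smaller, JAL23 about 3.58-fold, AT2G39420 2.60-fold and AT3G51450 about 2.22-fold, while AT3G28220 differed by 1.05-fold. The control opr3 value of AT3G51450 lies 0.07 above the filter level, so its place past the 2-fold limit is approximate. As a share of the wt response on the log2 scale, the opr3 response was 34.2% for AT2G43550 and 39.2% for AT2G39420. It was about 52.6% for JAL23, about 72.1% for AT3G51450 and 95.9% for AT3G28220. On a linear scale, where the lower start in opr3 counts as well as the fold, the same responses are smaller shares of those in wt. After the log2 values were turned back to linear signal, the rise from control to wounded plants in opr3 was 21.3% of that in wt for AT3G28220, 12.3% for AT3G51450, 7.38% for AT2G39420, 6.81% for JAL23 and 5.10% for AT2G43550. AT3G28220 thus had nearly equal folds in the lines and a rise in signal that was unequal, and the order of the genes by this share also differed between the scales.

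Between the lines, all 5 genes were at least 2-fold lower in opr3 control plants, as were 0.575% of probe sets, and all 5 were so in wounded plants, as were 1.66%. The genes were chosen for being low in opr3 before and after wounding, so neither count, nor the medians and places that follow, supports anything further about them. The median log2 difference of the 5 genes, opr3 minus wt, was -1.74 in control plants, against -0.04 over all probe sets, and -2.98 in wounded plants, against 0.00. Ranked from the most negative in control plants, AT3G28220 was at place 10, AT3G51450 at 17, JAL23 at 18, AT2G39420 at 24 and AT2G43550 at 67 of 14612. In wounded plants the ends of the order were exchanged, with AT2G43550 at place 13, JAL23 at 15, AT2G39420 at 22, AT3G51450 at 23 and AT3G28220 at 53. No array is shared between these comparisons.

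Probe sets with the same combination, at least 2-fold higher in wounded wt over control wt and at least 2-fold lower in opr3 both in control and in wounded plants, numbered 38 of 14612 (0.26%). Of these 28 were also at least 2-fold higher in wounded opr3 over control opr3, and in 18 the opr3 response was smaller by at least 2-fold. Only 9 of the 38 had 1 named gene, namely the 5 genes and AT5G05600, CML41, AT1G52000 and AT1G62660. The remaining 29 probe sets are not listed in the annotation with a single gene and are unnamed here. CML41, a calmodulin-like protein gene, was at 5.53 in wounded opr3, 4.32 in control opr3, 6.66 in wounded wt and 5.47 in control wt, with log2 responses of about 1.21 in opr3 and 1.19 in wt. Its control opr3 value lies under the filter level, so the size of the opr3 response is approximate. AT1G62660 was at 5.69, 4.95, 8.42 and 6.12 in the same order of arrays.

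**Figure D3:**
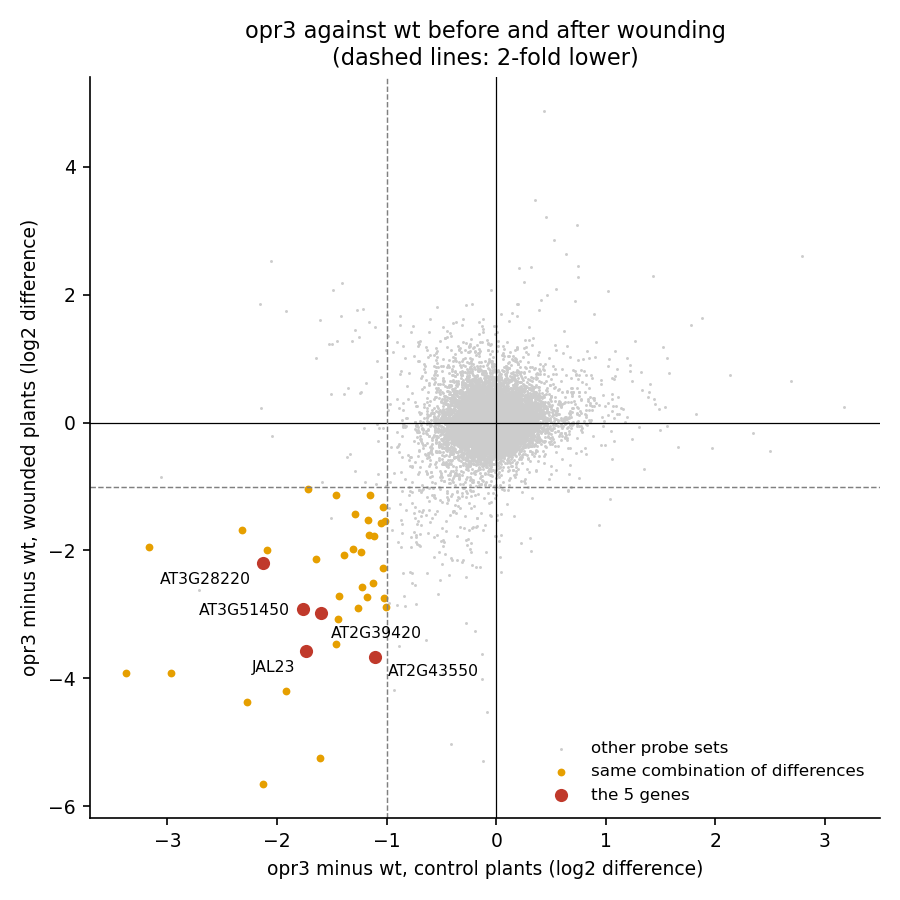
Log2 difference opr3 minus wt in control plants (x axis) and in wounded plants (y axis) for 14612 probe sets, with dashed lines at 2-fold lower. The 5 genes (red) lie below and left of both lines with the 33 other probe sets of the same combination (orange), from AT3G28220 at -2.13 and -2.20 to AT2G43550 at -1.11 and -3.66.

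Several of the 5 genes were nearest to each other by profile. Likeness was measured as the root mean square difference between log2 profiles over the 4 arrays, each centred on its own mean, among 7950 named probe sets past the filter; since the genes were chosen for a common form, it is a description. JAL23 and AT2G43550 were each other's nearest, at 0.29, and JAL23 was also nearest to AT3G51450, at 0.37. AT2G39420 was nearest to AT3G28220, at 0.34. The division was not sharp for AT2G43550, which stood at 0.58 from AT3G51450 and at 0.60 from AT2G39420. The most distant pair was AT3G51450 and AT2G39420, at 0.98.

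Genes outside the 5 that came next shared the high value in wounded wt and varied in the unwounded difference. Nearest to AT2G39420 were AT1G62660 (0.18), AT2G03980 (0.25) and AT2G34810 (0.31). AT2G03980 was at 6.68 in wounded opr3, 6.16 in control opr3, 9.54 in wounded wt and 7.07 in control wt, and AT2G34810 at 5.37, 5.09, 8.23 and 5.92 in that order of arrays. Both were lower in control opr3 than in control wt by less than 2-fold, with log2 differences of -0.91 and -0.83. AT1G62660 (0.40) and AT1G52000 (0.50) followed AT2G39420 for AT3G28220. AT5G05600 stood between JAL23 and AT2G43550 for AT3G51450, at 0.44, and had log2 responses of 4.13 in opr3 and 4.04 in wt.

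For JAL23 the third gene was AT2G38240 (0.69), and for AT2G43550 the next after JAL23 were JMT (0.54) and TBL26 (0.55). These 3 genes had the high value in wounded wt without a 2-fold difference in control plants. JMT, which makes methyl jasmonate, was at 4.63 in wounded opr3, 3.56 in control opr3, 7.13 in wounded wt and 4.33 in control wt. It was lower in opr3 by 0.77 in control plants and by 2.51 in wounded plants on the log2 scale, and its value was under the filter level on 3 arrays. These were wounded opr3 and both control arrays, so JMT passed the filter only through wounded wt, and both of its differences are approximate. TBL26, of a family of cell wall polysaccharide acetyltransferases, was at 4.67 in wounded opr3, 4.78 in control opr3, 8.61 in wounded wt and 5.26 in control wt. Both opr3 values lie at or near the filter level, so no size is read from its response in opr3, and its control difference is approximate. With Pearson's r over the 4 values in place of this distance, none of the 15 places was taken by the same gene, so which genes are called nearest depends on the measure.

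Among jacalin-related lectins, 4 of the 8 genes named as such in the gene table had a named probe set, and 2 passed the filter. Family members that the gene table calls by locus only were not counted, so the list may be incomplete. JAL34 was at 5.41 in wounded opr3, 5.55 in control opr3, 7.67 in wounded wt and 5.70 in control wt. Only the wounded wt value stood out. JAL34 was 4.79-fold lower in wounded opr3 than in wounded wt, as JAL23 was by 11.9-fold, but by 0.15 on the log2 scale between control plants, against 1.74 for JAL23. Its log2 response in opr3 was -0.14, against about 2.04 for JAL23. JAL22, 2 places from JAL23 in gene order, lay between 3.83 and 4.08 on all 4 arrays and JAL33 between 4.20 and 4.49, under the filter level.

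The genes next to the 5 on the chromosome were compared in the same way. Within 5 places on either side, 26 of 50 neighbours had a named probe set and 13 passed the filter. Of these 13, 2 were higher by 2-fold or more in wounded wt (AT2G43530 and AT3G51440; 3.94% of all probe sets) and 2 in wounded opr3 (CHI and AT3G51440; 4.85%). In control plants 1 was lower in opr3 (CHI; 0.575%), and in wounded plants 2 were (AT2G43530 and AT2G43535; 1.66%). The opr3 response was the smaller for 2 (AT2G43530 and AT2G43535; 1.32%) and the larger for 1 (CHI; 2.07%). All of these neighbours lie beside AT2G43550 or AT3G51450, and with 13 genes the shares are coarse. The nearest named neighbours of JAL23, AT3G28220 and AT2G39420 past the filter had differences between -0.71 and 0.65 in wounded wt over control wt.

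Around AT2G43550 the neighbours took several forms. AT2G43530, 3 places away in the run that starts with TI1 and TI2, was at 8.18 in wounded opr3, 7.64 in control opr3, 10.53 in wounded wt and 8.49 in control wt. Like AT2G43550 it had the smaller response in opr3 and the lower level in control opr3, with log2 responses of 0.54 in opr3 and 2.05 in wt and a log2 difference of -0.85 between control plants. Unlike AT2G43550, it was lower in wounded opr3 than in control wt, the order of AT3G28220 and AT2G39420. AT2G43540, the gene between them that lies next to AT2G43550, was flat at 6.83, 7.02, 6.90 and 6.87, and so was AT2G43560 on the other side, at 9.86, 10.22, 10.04 and 10.07. CHI, a chitinase gene 2 places away, was at 7.99 in wounded opr3, 5.22 in control opr3, 7.54 in wounded wt and 6.73 in control wt. It shared the low unwounded level in opr3 with AT2G43550 but not the gap after wounding, where opr3 was higher by 0.44 on the log2 scale.

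Next to AT3G51450, AT3G51440 was at 6.13 in wounded opr3, 4.45 in control opr3, 6.18 in wounded wt and 5.18 in control wt. Its control value in opr3 lay under the filter level. It was about 3.20-fold higher in wounded opr3 and 2.01-fold higher in wounded wt, and the lines differed by -0.06 after wounding, against -2.91 for AT3G51450. SSL4 and YLS2 had no named probe set and were not analysed here. Beside AT2G39420, AT2G39400 had log2 responses of -0.50 in opr3 and -0.71 in wt, opposite in direction to AT2G39420, and AT2G39410 lay between 4.06 and 4.15 on all arrays.

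**Figure D4:**
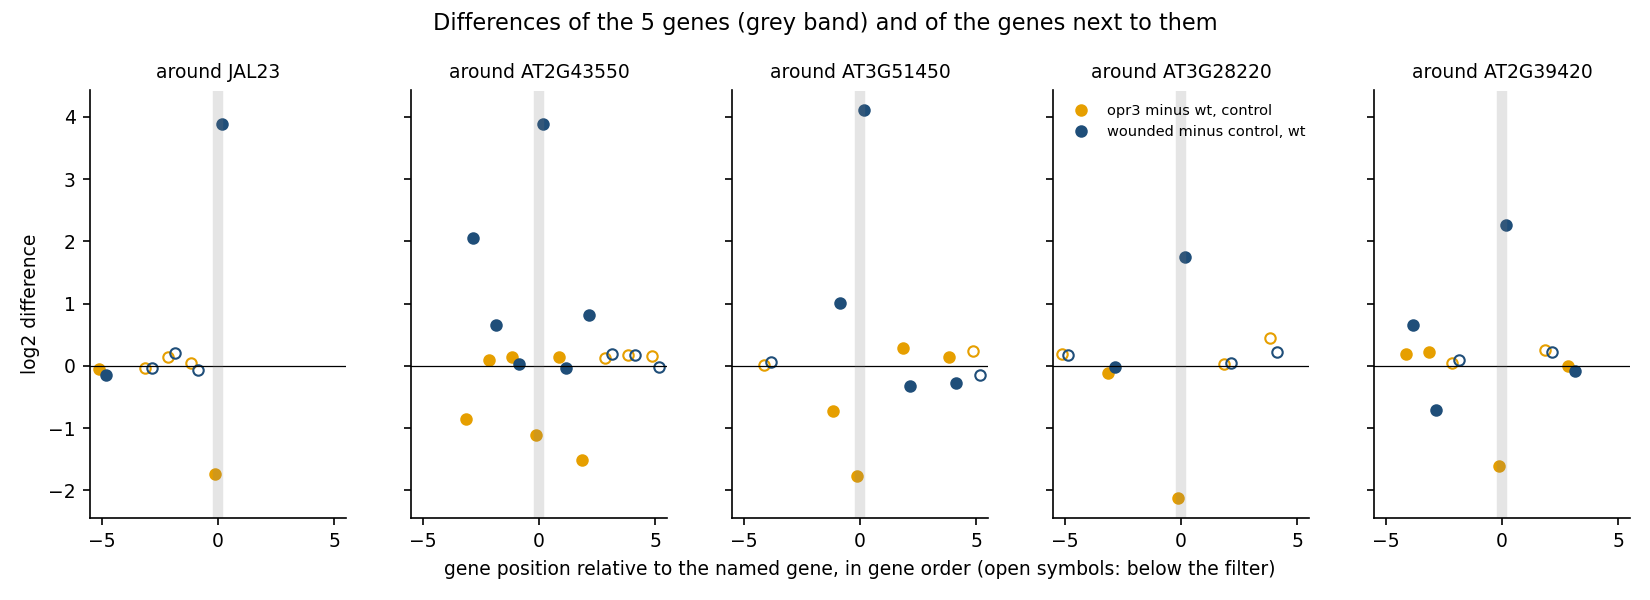
Log2 differences (y axis) of the 5 genes, marked by a grey band, and of named genes up to 5 places away in gene order (x axis), with opr3 minus wt in control plants in orange and wounded minus control in wt in blue; open symbols lie below the filter. Blue points above 1 next to a band belong to AT2G43530 and AT3G51440, and the orange point below -1 beside AT2G43550 is CHI, at -1.51.

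Of 36 written genes of jasmonate synthesis, perception and response, 6 had a named probe set past the filter: OPCL1, AIM1, JMT, MYC3, MYC4 and THI2.1. OPR3 itself had none, so the mutated gene could not be checked. Of the 6, 2 were higher by 2-fold or more in wounded wt (OPCL1 and JMT; 3.94% of all probe sets). In wounded opr3 1 was (JMT; 4.85%), but both of its opr3 values lie under the filter level, so no size is read from that response. None was lower by that much in control opr3, where 0.575% of all probe sets were, so a count of none among 6 says little. In wounded opr3 2 were lower than in wounded wt (1.66% of all), and for 2 the opr3 response was the smaller (1.32% of all). In both of these counts the genes were JMT and THI2.1. Each passed the filter only through wounded wt and lay under its level on the other 3 arrays, so neither count supports anything further. The median log2 difference of the 6 genes between control plants was -0.33, against -1.74 for the 5 genes and -0.04 over all probe sets. In wounded plants it was -0.51, against -2.98 for the 5 genes. Since the 5 genes were chosen for low values in opr3, these gaps come with the choice and support nothing further. OPCL1, a ligase that activates jasmonate precursors, was at 7.97 in wounded opr3, 7.30 in control opr3, 8.86 in wounded wt and 7.57 in control wt. The transcription factor genes MYC3 and MYC4 were lower in control opr3 by 0.38 and 0.42 on the log2 scale and lay within 0.14 of wt after wounding. THI2.1, a thionin gene, had a log2 difference of 0.06 in control plants and -1.04 in wounded plants, with values under the filter level on 3 arrays.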

How the data were processed

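The deposited file holds log2 expression per probe set, which the authors made with RMA and Partek (no version given), per the submitters' processing notes; the annotation they used is not given in the sources used here. RMA compresses low values, so folds of weak genes are understated. Raw intensities were not used here. Labels put 1 array in each of 4 groups.

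Of 22746 plant probe sets, 13436 were matched to 1 gene of the TAIR10.1 gene table through the platform annotation, 503 had several genes and 8730 were not listed in it. Differences of log2 values were computed with Python 3.11.15 for 14612 probe sets whose highest value reached the 40th percentile of all values (4.73), and called at 2-fold. JAL23 passed through its other 3 arrays. No test was possible with 1 array per group. The steps were run on simulated arrays with planted changes. This checks the calculation only, since the spread between plants is not known.

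Members and lists were chosen with earlier results of these data known. Named genes are the 5 members, named jacalin-related lectins, neighbours within 5 places, up to 6 jasmonate genes and, per member, the 3 genes nearest in profile. Other families planned for description are left out because the tables give their genes no product name; sequences were not used here. Alternatives were centring on medians, quantile normalization, cyclic loess (limma 3.58.1), other filters and other fold limits.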

Additional observations from a re-analysis of the deposited data

Results flagged for a closer look

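AT2G43535, 2 places from AT2G43550, moved in opposite directions in the lines, by at least 1.5-fold in each. It was at 4.53 in wounded opr3, 5.25 in control opr3, 5.81 in wounded wt and 5.15 in control wt. Its log2 response was -0.71 in opr3 and 0.66 in wt, a difference between responses of -1.37. The wounded opr3 value lies under the filter level of 4.73, and the difference was not tested.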

How the results depend on the processing

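Each of the 25 differences of the 5 genes (5 genes in 5 comparisons) kept its direction and its side of the 2-fold limit when the arrays were centred on their medians, quantile normalized or scaled by cyclic loess, and the largest move was 0.08 on the log2 scale. The RMA values were already close in level between arrays, with medians of 5.35 to 5.41, so these scalings could move them little. Counts of all probe sets past the limit stayed within 1.5 times under these scalings. The same held with no filter and with a stricter one at the 60th percentile. The counts moved with the limit by its construction. At 1.5-fold and at 3-fold there were 2773 and 315 probe sets in the opr3 response (953 at 2-fold), 2459 and 294 in the wt response (837), 575 and 36 between control plants (145), 1267 and 167 between wounded plants (437), and 1736 and 167 in the difference of the responses (495). No paired analysis was possible because each group has 1 array. The number of arrays sets the precision, and JAL23 in control opr3 lies near background.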
